A study of Mus musculus with 32 samples.

Results

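Total RNA-seq followed mouse embryos from the early to the late 2-cell stage after exposure to A-485, an inhibitor of the catalytic activity of the acetyltransferases CBP and p300. The members are the 4 libraries whose labels give A-485 and one of these stages, 2 per stage, out of 16 RNA libraries and 32 samples in the series. All embryos were wild type, made by in vitro fertilization from oocytes and sperm of B6D2F1/J mice aged 6 to 8 weeks, and both A-485 groups had been cultured in 10 µM A-485 from 4 to 20 hours post in vitro fertilization (hpi) before wash-out. The same interval was measured in DMSO-treated embryos with 2 libraries per stage, and the A-485 and DMSO transitions share no library. Each library is a pool of embryos, the labels give no hour of collection, and they do not say that replicates came from separate collections, so p-values measure the spread between libraries, which may be technical. The late A-485 libraries are titled in another style than the early ones and lie in a separate block of the series together with the zygote libraries and the late DMSO libraries used here.

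The early mouse embryo starts with RNA and protein stored in the oocyte. A minor wave of zygotic genome activation (ZGA) in the zygote and the early 2-cell embryo is followed by a major wave in the late 2-cell embryo, while much of the maternal RNA is degraded. Acetylation of histone H3 at lysine 27 (H3K27ac), which CBP and p300 deposit, marks active promoters and enhancers. Genes that define the 2-cell embryo include the Zscan4, Tdpoz and Usp17-like families and Zfp352, and the major wave raises many genes of ribosome production and translation.

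The 2 late A-485 libraries stood apart from the other RNA libraries. They held 13206163 and 14922961 expected counts, the lowest of the 16 libraries, against 22393323 and 23864414 in the early A-485 libraries. Mitochondrially encoded mRNA took 5.43% and 5.35% of their counts, against 2.24% to 2.50% in the early A-485 and all 4 DMSO libraries of the comparison. The 20 most abundant genes took 32.1% and 32.6% of the late A-485 counts, against 21.6% and 21.3% in the early A-485 libraries. Their FPKM (fragments per kilobase of gene, scaled to sequencing depth) summed to higher totals, so FPKM ratios below run above the fold changes, which were fitted to expected counts scaled by the trimmed mean of M values (TMM). Genes with an FPKM of at least 1 numbered 14944 and 14921, against 11195 and 11326 at the early stage. Both late 2-cell DMSO groups lie in the 2 different blocks and also differ in the time of DMSO exposure. They differed in 28 higher (0.136%) and 245 lower (1.19%) of 20647 genes. Of the genes that rose under A-485, 22 were among them, as were 6 of those that fell. The part of depth, of mitochondrial RNA and of the sample block in the results was not tested, and in bulk embryos fewer cells and less RNA per cell cannot be told apart.

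Treated embryos still changed broadly between the stages. Of 22854 genes tested, 2915 were higher (12.8%) and 1634 were lower (7.15%) at the late 2-cell stage, by edgeR's quasi-likelihood test with a Benjamini-Hochberg adjusted p under 0.05, a change of at least 2-fold and an average of 1 FPKM or more in one of the groups. In DMSO embryos 3238 of 20326 genes were higher (15.9%) and 1813 were lower (8.92%). Of the 2915 genes that rose under A-485, 866 (29.7%) rose in DMSO as well, while those 866 were 26.7% of the 3238 genes that rose in DMSO. Of the 1634 genes that fell, 715 (43.8%) fell in DMSO, which is 39.4% of the 1813 genes that fell there. A further 105 genes rose under A-485 and fell in DMSO, and 78 genes fell under A-485 and rose in DMSO. The difference between the transitions itself, tested as an interaction of stage and treatment over 8 libraries, was called higher under A-485 for 1911 (7.6%) and lower for 1855 (7.38%) of 25141 genes. These shares over all genes tested stand as background for the list counts below. A call in the A-485 transition needs an average of 1 FPKM, which 15355 of 22854 genes reached. Lists of mostly expressed genes are therefore not like for like with them. Across 15229 expressed genes the log2 changes of the 2 transitions correlated with a Pearson r of 0.226, a description across genes, which are not independent replicates. With library totals as the scale 3527 genes were higher and 966 lower under A-485, and with the mitochondrially encoded mRNAs as the scale 1506 were higher and 6178 lower, so that the share of calls that were higher moved from 64.1% to 78.5% or to 19.6%. These scales moved the median log2 change of expressed genes from 0.03 to 0.32 or to -0.87.

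**Figure D1:**
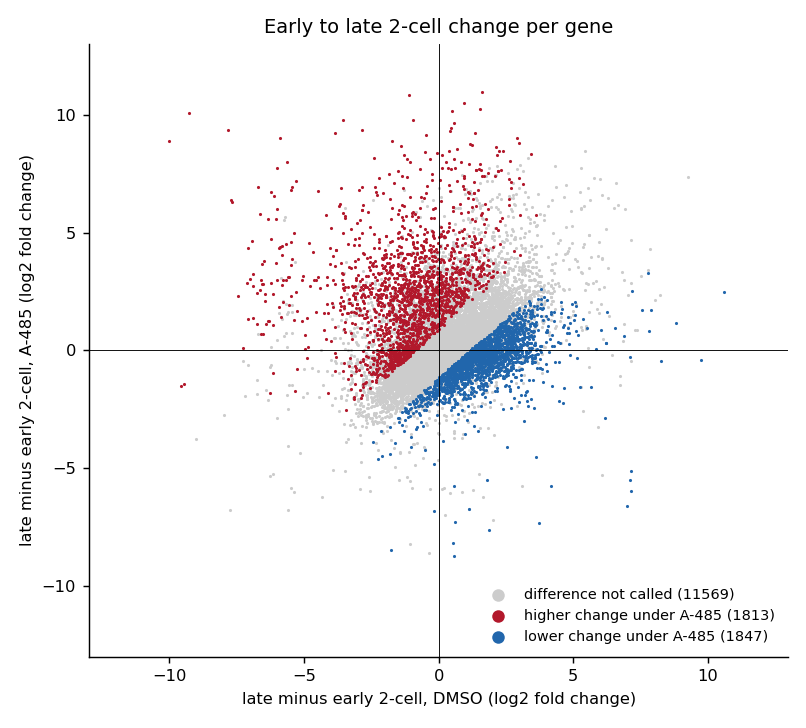
Each point is an expressed gene (averaging 1 FPKM or more), placed by its log2 fold change from early to late 2-cell in DMSO (x axis) and A-485 embryos (y axis), 2 libraries per group. Points are coloured where the difference of the transitions was called (1813 higher and 1847 lower under A-485 among the 15229 genes plotted), and the cloud spreads over all 4 quadrants.

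The genes that rose most under A-485 included members of families known from the 2-cell embryo. Of the called genes that averaged 10 FPKM or more in their higher group, and whose groups did not overlap, the 12 with the largest rise were Nupr1, Spaca6, Tdpoz4, Trim43b, Bex6, Sox17, Crxos, Pramel7, Zscan4f, Sult2b1, Morc4 and Dll1. Zscan4f, a SCAN-domain zinc finger protein active in 2-cell embryos, had FPKM of 0.39 and 0 in the early A-485 libraries and 13.4 and 18.6 in the late ones. In DMSO it had already reached 231 and 196 at the early 2-cell stage and stood at 59.3 and 65.0 at the late stage. The late A-485 libraries were thus above both early A-485 libraries and below all 4 DMSO libraries. Its log2 change was 5.57 ± 0.64 (SE, n = 2 libraries per group, edgeR adjusted p = 5.9e-07) under A-485 and -1.77 ± 0.12 (edgeR adjusted p = 4.5e-07) in DMSO, and the difference was 7.52 ± 0.48 (edgeR adjusted p = 3.1e-11).

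The Zscan4 family moved as a group in this way. Of its 9 tested members 7 rose and 0 fell under A-485, with a median log2 change of 2.85, whereas in DMSO 0 rose and 8 fell, with a median of -1.90. Summed FPKM of the family was 5.05 and 3.63 in the early and 35.6 and 46.4 in the late A-485 libraries, against 629 and 615 in the early and 159 and 182 in the late DMSO libraries. All 9 members had a higher change under A-485 than in DMSO, and all 9 were lower in late A-485 than in early DMSO embryos, a comparison in which 8.51% of all genes tested were lower. The members that did not pass the test of the A-485 transition were Zscan4b, at 0 and 0.46 against 0.44 and 2.89 FPKM, and Zscan4-ps1, at 1.90 and 2.04 against 2.41 and 1.92 FPKM. Zscan4-ps3 had 0 counts in both early libraries and 2.45 and 2.29 FPKM in the late ones. Leaving out late A-485 library 2 ended the call of Zscan4e (log2 change 1.84, edgeR adjusted p = 0.13). The copies are near identical, so how their reads were divided among them is uncertain.

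Promoters of these genes are shown because they carry motifs of factors known in 2-cell embryos. They are RefSeq promoters on GRCm38.p6, 250 bases before to 50 after the start, read along the gene's strand. Capitals mark the TATA box (TATAAA) and the motif of Dux (on the opposite strand) in the Zscan4 promoters, and the Obox and Otx motif (TAATCC) in that of Zfp352. The RefSeq promoter of Tdpoz4, which also rose, held none of these motifs and is not shown.
Zscan4f, chr7:11397665-11397964, plus strand: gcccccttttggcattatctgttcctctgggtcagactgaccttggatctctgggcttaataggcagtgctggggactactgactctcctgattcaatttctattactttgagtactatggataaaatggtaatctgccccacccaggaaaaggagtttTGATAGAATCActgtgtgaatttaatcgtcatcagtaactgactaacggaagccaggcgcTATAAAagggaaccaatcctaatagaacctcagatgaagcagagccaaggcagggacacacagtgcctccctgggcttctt
Zscan4d, chr7:11166099-11166398, minus strand: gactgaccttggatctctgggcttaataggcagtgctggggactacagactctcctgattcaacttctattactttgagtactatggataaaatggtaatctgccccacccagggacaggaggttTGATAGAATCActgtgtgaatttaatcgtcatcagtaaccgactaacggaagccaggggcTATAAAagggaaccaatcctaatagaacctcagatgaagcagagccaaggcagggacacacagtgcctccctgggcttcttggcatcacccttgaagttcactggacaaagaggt
Zfp352, chr4:90218570-90218869, plus strand: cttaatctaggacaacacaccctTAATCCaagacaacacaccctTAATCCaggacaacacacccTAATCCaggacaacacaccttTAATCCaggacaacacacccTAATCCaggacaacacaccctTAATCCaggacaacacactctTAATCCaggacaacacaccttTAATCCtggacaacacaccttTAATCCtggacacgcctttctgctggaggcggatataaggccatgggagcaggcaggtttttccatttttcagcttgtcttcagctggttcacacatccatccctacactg
Searched on both strands, the Dux motif stood in 0.244% of all 27025 RefSeq promoters and TATAAA in 15.7%. Among early 2-cell ZGA genes, described next, 241 had a RefSeq promoter. Of these 13.7% held TATAAA, 1.66% held the Dux motif and 17.4% held TAATCC, against 8.14% of all promoters for TAATCC. A share of 1.66% in 241 rests on few promoters. Zscan4c, Zscan4d and Zscan4f held the same Dux match in near-identical promoters, and such copies are not independent. A match is a description of letters in this window and not a sign of binding.

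The Tdpoz family, which encodes TRAF- and BTB/POZ-domain proteins, came from near absence. All 5 tested members rose under A-485, with a median log2 change of 6.08, or 5.64 with members at or under 3 early counts set to their bound. Tdpoz4 had 0.15 and 0.09 FPKM in the early and 11.2 and 16.3 FPKM in the late A-485 libraries, while in DMSO it had 39.8 and 21.5 at the early and 57.5 and 73.7 at the late stage. The A-485 groups did not overlap, and Tdpoz4 rose by 6.47 ± 0.57 (SE, edgeR adjusted p = 1.1e-08) on the log2 scale. Tdpoz1 went from 1 count in all to 203 counts, a ratio with a 95% counting interval of 48.6 to 10880, and Tdpoz5 from 2 to 111 counts, with an interval of 20.3 to 627. All 5 members remained below early DMSO embryos.

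The Usp17-like deubiquitinase genes rose less. Of 5 tested members 3 were called higher, with a median log2 change of 1.87, and all 5 were below early DMSO embryos. Usp17ld went from 1.11 and 1.35 to 7.97 and 10.7 FPKM (log2 change 2.61 ± 0.34, edgeR adjusted p = 3.6e-06), and Usp17le from 0.94 and 1.23 to 4.41 and 6.78 FPKM (2.06 ± 0.43, edgeR adjusted p = 0.00073). Usp17lc had 5.05 and 4.59 early and 10.7 and 13.7 FPKM late, a log2 change of 0.91 ± 0.23 that passed the test of p (edgeR adjusted p = 0.0042) and not the 2-fold limit. Without early library 1 its log2 change was 1.00 and it was called. Duxf3, the Dux gene that encodes an activator of 2-cell genes, had 4.88 and 3.57 early and 6.04 and 9.56 FPKM late under A-485 (log2 change 0.72 ± 0.33, edgeR adjusted p = 0.1), against 5.16 and 4.92 in early and 3.22 and 4.29 FPKM in late DMSO embryos. It was called without late library 1 (log2 change 1.04, edgeR adjusted p = 0.0097).

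The Obox homeobox genes moved both ways. Obox6 rose from 1.56 and 0.94 to 14.3 and 11.1 FPKM and Obox3 from 0.68 and 0.14 to 5.36 and 3.51 FPKM, and Obox8 was the other member that rose. Obox5 fell from 1699 and 1591 to 130 and 177 FPKM and Obox1 from 795 and 647 to 97.0 and 124 FPKM, and Obox2 and Obox7 also fell. The 7 tested members had the same calls in DMSO, 3 higher and 4 lower, and the difference of the transitions was called for 1 of them, Obox3 (2.91 ± 0.41, edgeR adjusted p = 5.7e-06). Reads of Obox, Tdpoz and Usp17-like copies can be divided among near-identical genes, so single members are uncertain.

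**Figure D2:**
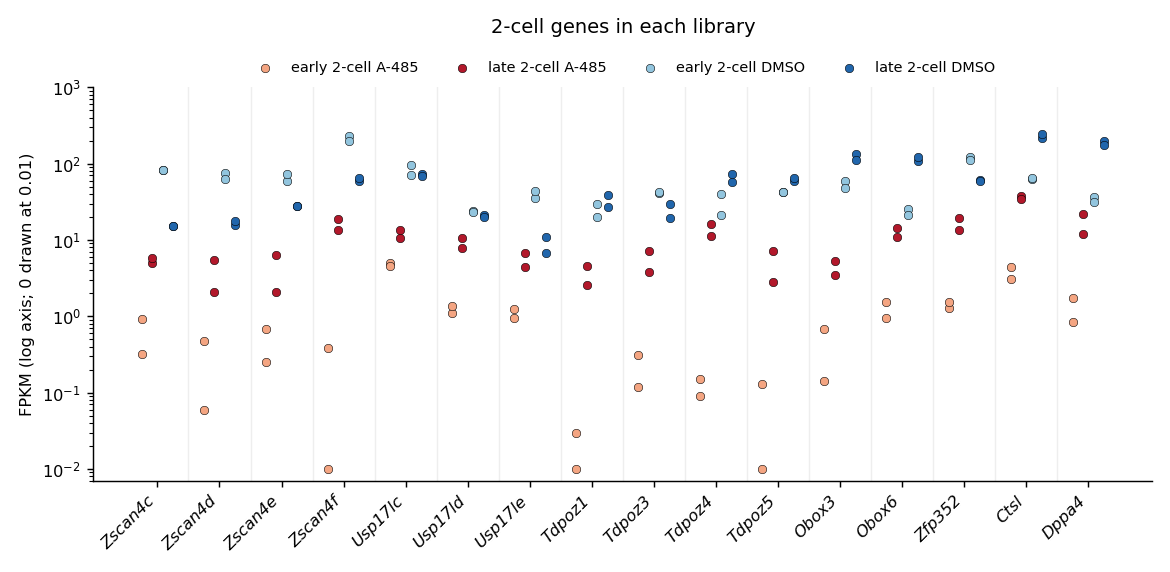
FPKM on a log axis of 16 genes of the 2-cell embryo in each of the 8 libraries, with 1 point per library, colours for stage and treatment, and values of 0 drawn at 0.01. For Zscan4f and Tdpoz4 the late A-485 points lie above the early A-485 points and below both groups of DMSO points.

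Of 22 tested single-copy genes of the 2-cell embryo, 9 rose and 2 fell, and with the mitochondrial scale 5 rose and 8 fell. Zfp352, a zinc finger gene, went from 1.28 and 1.52 to 19.3 and 13.5 FPKM under A-485 (log2 change 3.16 ± 0.29, edgeR adjusted p = 1.9e-08). In DMSO it fell from 122 and 112 to 60.2 and 60.0 FPKM, and the groups were ordered early A-485, late A-485, late DMSO and early DMSO with no overlap. Ctsl, a lysosomal protease, rose from 3.05 and 4.43 to 37.5 and 34.7 FPKM, and Dppa4, a chromatin-associated activator of 2-cell genes, from 0.84 and 1.75 to 12.1 and 21.6 FPKM. Their changes of 2.63 ± 0.21 and 3.26 ± 0.43 on the log2 scale stood beside 2.06 ± 0.12 and 2.58 ± 0.17 in DMSO, and the difference of the transitions was 0.73 ± 0.20 for Ctsl (edgeR adjusted p = 0.01) and 0.83 ± 0.31 for Dppa4 (edgeR adjusted p = 0.062), both under the 2-fold limit. Tmem92 had 0.99 and 2.09 early and 4.66 and 3.93 FPKM late under A-485 (edgeR adjusted p = 0.061), against 74.1 and 64.7 FPKM in early DMSO embryos. The 2 that fell were Nelfa, a subunit of the negative elongation factor, and Prdm10, at log2 changes of -1.01 ± 0.15 and -1.03 ± 0.19. Both were under the 2-fold limit without early library 1 and without late library 1 (-0.78 and -0.98 there).

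The early 2-cell minor ZGA genes, 558 genes that the study defined by the transcription inhibitor DRB in early 2-cell embryos, rose late in treated embryos. Of the 532 members tested (26 had under 10 counts), 325 rose (61.1%) and 5 fell (0.94%), beside 12.8% and 7.15% over all genes tested. Their median log2 change was 2.17, beside 0.03 over the 15355 expressed genes only. Of the 532, 467 were expressed by that rule, an average of 1 FPKM or more in a group. The study may have used the early DMSO libraries in defining the list, while no A-485 library entered it. Per library, the median FPKM over the 558 members was 0.83 and 0.785 in the early and 5.24 and 4.72 in the late A-485 libraries. The same median was 14.8 and 13.5 in early DMSO, 21.5 and 23.8 in late DMSO and 0.38 and 0.37 in zygote DMSO libraries. Both late A-485 libraries were thus above every early A-485 and zygote library and below every 2-cell DMSO library. Members with an FPKM of at least 1 numbered 249 in each early A-485 library, 440 and 464 in the late ones, and 530 in each early DMSO library.

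Most members that rose had not reached the level of a normal early 2-cell embryo. Against early DMSO embryos, 173 of the 325 were lower in late A-485 embryos, 36 were higher and 116 passed neither test, where over all genes 8.51% were lower and 9.26% higher. The change was higher under A-485 than in DMSO for 218 of the 325 and lower for 11. In DMSO 200 of all 558 members rose and 88 fell between the stages. Of the 80 members tested in both transitions that fell in DMSO, 41 rose under A-485 and 3 fell. Of the 199 that rose in DMSO, 137 rose under A-485. There were 47 members with 0 counts in both early A-485 libraries, and 27 of these had counts in both late libraries. With the mitochondrial scale 214 members rose and 18 fell, with a median of 1.27.

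**Figure D3:**
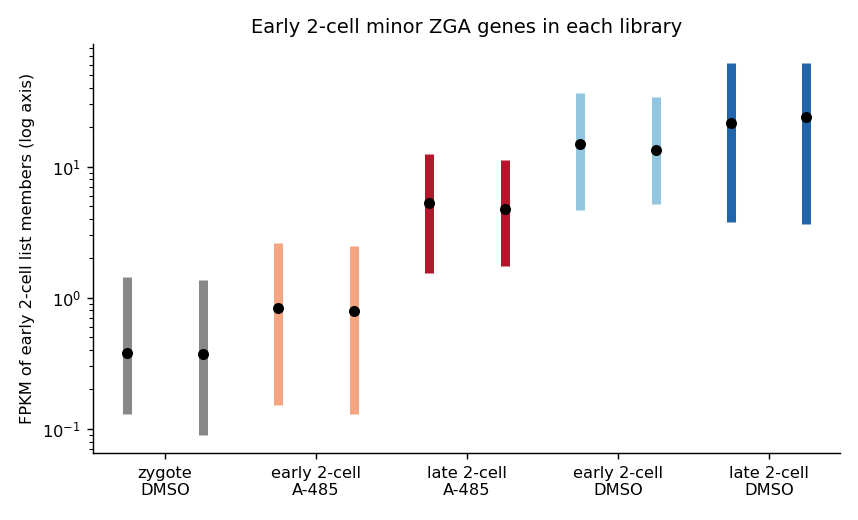
Bars give the range from the lower to the upper quartile of FPKM and points the median (log axis) over the 558 members of the early 2-cell list in each of 10 libraries. The late A-485 medians of 5.24 and 4.72 lie between the early A-485 medians of 0.83 and 0.785 and the early DMSO medians of 14.8 and 13.5.

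The most abundant members that rose were Rplp1, Hist2h2ac, Hist1h2af, Hist1h3b, Malat1, Rbbp6, Set and Stt3a. Malat1, a nuclear long noncoding RNA, had 20.3 and 17.9 FPKM early and 114 and 75.8 FPKM late under A-485, against 43.6 and 42.4 in early and 48.6 and 38.1 FPKM in late DMSO embryos. Both late A-485 libraries exceeded all DMSO libraries, and the log2 change was 1.99 ± 0.11 (SE, edgeR adjusted p = 6e-12) under A-485 and 0.27 ± 0.12 (edgeR adjusted p = 0.11) in DMSO. Set, a histone chaperone, rose from 9.18 and 11.5 to 61.4 and 75.4 FPKM, a log2 change of 1.95 ± 0.16, while in DMSO it rose from 132 and 100.2 to 627 and 602 FPKM, a log2 change of 2.22 ± 0.15. The difference for Set was -0.12 ± 0.19 (edgeR adjusted p = 0.77), so its relative rise was close in both while the levels stayed far apart. The calls of 2 histone genes rested on single libraries. Hist1h2af (log2 change 1.03) was under the 2-fold limit without early library 2 (0.89) or late library 2 (0.90), and Hist1h3b (1.03) lost its call without early library 2 (0.44, edgeR adjusted p = 0.23). The 5 members that fell included Dclre1a, a DNA crosslink repair nuclease (-1.51 ± 0.18), Actn3 (-1.31 ± 0.37, with overlapping FPKM) and Zfp772 (-1.27 ± 0.38). Actn3 lost its call without early library 1 (edgeR adjusted p = 0.11) and Zfp772 without early library 2 (edgeR adjusted p = 0.14).

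Genes by their normal timing gave a wider view. Of 2154 tested genes that rise from the zygote to the early 2-cell stage in DMSO, 978 (45.4%) rose and 40 fell from early to late 2-cell under A-485. Of 3526 that rise at least 4-fold from the zygote to the late 2-cell stage, 1271 (36.1%) rose and 13 fell, with a median log2 change of 1.53. In DMSO 1851 of 3809 of the latter rose. Of 2120 genes that fall at least 4-fold over that time, 558 (26.3%) fell and 46 rose under A-485, with a median of -0.70, whereas 812 of 2108 fell in DMSO, with a median of -1.13. The first list shares the early DMSO libraries with the DMSO transition. The 4-fold lists were made from the zygote and the other late DMSO libraries, which enter neither transition, and no list used an A-485 library, but all were chosen for their direction in DMSO embryos. Of the 30 zygote minor ZGA genes of the study, 11 rose and 3 fell under A-485.

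Genes of ribosome production rose in DMSO embryos and divided under A-485. Of 88 ribosome biogenesis genes, 75 rose and 1 fell in DMSO, with a median log2 change of 2.21, whereas under A-485 17 rose and 14 fell, with a median of 0.16 (4 and 36, with a median of -0.75, on the mitochondrial scale). The difference was lower under A-485 for 62 and higher for 0, and with the mitochondrial scale it was lower for 84. Over all genes tested 12.8% rose and 7.15% fell under A-485, and 15.9% rose and 8.92% fell in DMSO. The difference was lower for 7.38% and higher for 7.6% of them. Noc2l, which acts in ribosome assembly, had 0.95 and 1.74 FPKM early and 1.08 and 2.06 FPKM late under A-485. In DMSO it went from 2.29 and 2.49 to 52.6 and 66.1 FPKM, so that the late DMSO libraries stood above all others and the A-485 groups overlapped. Its log2 change was -0.18 ± 0.52 (edgeR adjusted p = 0.83) under A-485 and 4.89 ± 0.19 (edgeR adjusted p = 2.1e-08) in DMSO. Npm1, the nucleolar protein nucleophosmin, fell from 469 and 382 to 156 and 163 FPKM (-1.73 ± 0.11, edgeR adjusted p = 4.3e-11) and had 501, 483, 495 and 434 FPKM in the 4 DMSO libraries. Nop58, a core protein of box C/D ribonucleoproteins, rose under A-485 from 23.9 and 14.3 to 110 and 102 FPKM, a log2 change of 2.05 ± 0.18 beside 2.28 ± 0.14 in DMSO, with a difference of -0.07 ± 0.21 (edgeR adjusted p = 0.93).

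In other growth lists more members had a lower than a higher change under A-485 relative to DMSO. Of 79 cytoplasmic ribosomal protein genes 21 rose and 4 fell under A-485 (median 0.62), against 70 and 0 in DMSO (median 1.88), and the difference was lower for 39 and higher for 0. Rplp1, a protein of the ribosomal stalk, rose by 1.17 ± 0.29 under A-485 and 2.52 ± 0.14 in DMSO on the log2 scale. Ribosomal protein genes have many processed copies, so their counts are uncertain, and on the mitochondrial scale the list's median under A-485 was -0.30, with 3 higher and 16 lower. Translation factors had 5 higher and 15 lower of 47 (26 and 1 in DMSO), spliceosome genes 9 and 18 of 73 (33 and 6), RNA polymerase II, TFIID and Mediator genes 9 and 14 of 77 (31 and 6), and nuclear pore genes 7 and 15 of 53 (23 and 4). In these 4 lists the difference of the transitions was lower for 27, 33, 28 and 25 members and higher for 1, 1, 0 and 0. Proteasome subunits had 0 higher and 8 lower of 38, chaperones 10 and 14 of 51, and replication licensing genes 8 and 13 of 46. The shares over all genes tested were 12.8% higher and 7.15% lower under A-485, and 15.9% and 8.92% in DMSO. For the difference they were 7.6% higher and 7.38% lower. Spliceosome and RNA polymerase II lists, at 12.3% and 11.7% higher under A-485, were thus near the share over all genes on that side.

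Individual genes moved in opposite directions in the 2 transitions. Ipo4, a nuclear import receptor, fell under A-485 from 9.83 and 9.29 to 5.14 and 4.23 FPKM and rose in DMSO from 8.40 and 13.4 to 62.6 and 73.6 FPKM. The late A-485 libraries were below all others and the late DMSO libraries above all others, with log2 changes of -1.88 ± 0.42 (edgeR adjusted p = 0.0012) and 3.23 ± 0.18 (edgeR adjusted p = 1.2e-07). Sirt1, a deacetylase, fell from 26.5 and 30.3 to 11.1 and 12.9 FPKM under A-485 and rose from 34.1 and 33.6 to 163 and 145 FPKM in DMSO, a difference of -3.58 ± 0.17 on the log2 scale (edgeR adjusted p = 6.4e-13). Abcf1, an ABC-family translation factor, fell by 1.72 ± 0.25 under A-485 and rose by 2.66 ± 0.15 in DMSO. Rnf216, Grwd1, Arpc1a and Duxbl2 were called the same way, but Rnf216 was under the 2-fold limit without late library 1 (-0.75), Grwd1 lost its call without early library 1 or late library 2 (edgeR adjusted p = 0.32 and 0.15), and Arpc1a lost it without any of the 4 libraries (edgeR adjusted p from 0.083 to 0.17).

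The promoters of 3 genes with a lower change under A-485 are shown for the ETS motif (CCGGAAG, in capitals), which was more frequent among such genes. Of the genes named for a lower difference that had a RefSeq promoter, Grwd1 also held it, and Rab40c and Mpdu1 did not. The sequences are RefSeq promoters of the same build and window.
Ipo4, chr14:55635635-55635934, minus strand: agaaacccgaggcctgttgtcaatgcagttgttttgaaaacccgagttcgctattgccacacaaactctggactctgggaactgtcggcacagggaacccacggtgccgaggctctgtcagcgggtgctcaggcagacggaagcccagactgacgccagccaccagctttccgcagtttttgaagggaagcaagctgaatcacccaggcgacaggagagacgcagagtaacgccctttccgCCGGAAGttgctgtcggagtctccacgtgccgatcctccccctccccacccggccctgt
Noc2l, chr4:156235760-156236059, plus strand: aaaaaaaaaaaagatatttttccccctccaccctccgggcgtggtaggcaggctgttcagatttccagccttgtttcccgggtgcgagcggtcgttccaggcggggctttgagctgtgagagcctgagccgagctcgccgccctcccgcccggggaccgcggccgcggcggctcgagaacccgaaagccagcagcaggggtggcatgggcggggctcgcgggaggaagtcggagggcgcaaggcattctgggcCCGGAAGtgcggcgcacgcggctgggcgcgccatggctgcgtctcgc
Abcf1, chr17:35969701-35970000, minus strand: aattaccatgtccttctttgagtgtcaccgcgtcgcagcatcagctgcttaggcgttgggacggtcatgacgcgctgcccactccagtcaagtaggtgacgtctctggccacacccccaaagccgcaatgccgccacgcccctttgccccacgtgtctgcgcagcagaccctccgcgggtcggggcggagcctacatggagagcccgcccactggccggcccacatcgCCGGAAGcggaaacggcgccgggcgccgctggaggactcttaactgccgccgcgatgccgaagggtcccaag
Of 1309 genes that rose in DMSO with a lower change under A-485, 1025 had a RefSeq promoter, and 31.0% of these held CCGGAAG on either strand, as did 40.3% of 77 ribosome biogenesis promoters. The share was 19.2% over promoters of expressed genes, 9.93% over all promoters and 13.3% over those of early 2-cell minor ZGA genes. No test was made of these shares.

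The largest falls under A-485 were in RNAs that the zygote libraries also held. The 12 genes with the largest fall by the same rule were Snrpert, Magoh, Rfpl4, Snrpd3, Rpa3, Obox5, Pttg1, Cks2, Smn1, Snrpe, Btf3 and Dppa3. Magoh, a core protein of the exon junction complex, fell from 846 and 858 to 70.2 and 65.4 FPKM (log2 change -4.11 ± 0.11, edgeR adjusted p = 8.5e-17), while in DMSO it went from 1021 and 1011 to 536 and 469 FPKM (-1.03 ± 0.11). Dppa3, a maternal factor that guards DNA methylation, fell from 1792 and 1806 to 220 and 266 FPKM, against 1730 and 1531 to 1205 and 987 FPKM in DMSO. In both genes the late A-485 libraries lay below all DMSO libraries, and the difference of the transitions was -2.92 ± 0.15 for Magoh (edgeR adjusted p = 7.3e-13) and -2.48 ± 0.16 for Dppa3 (edgeR adjusted p = 2.7e-11). Snrpe, Snrpd3 and Smn1, which act in the assembly of spliceosomal ribonucleoproteins, fell by 3.26, 3.91 and 3.33 on the log2 scale, and their differences from DMSO lay between -2.32 and -2.12.

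Other maternal RNAs fell by closer amounts. Of 2135 genes in the list that falls by the late 2-cell stage, the difference of the transitions was higher under A-485 for 223 and lower for 39. Its median was 0.49, which turned to -0.55 on the mitochondrial scale. Over all expressed genes the median difference was itself 0.22, and -0.83 on the mitochondrial scale. The difference was fitted over 8 libraries with a scale of its own, so it need not equal the gap between the 2 changes. Zbed3, a component of the subcortical maternal complex, fell from 10269 and 9986 to 3272 and 3349 FPKM under A-485 and from 8854 and 9135 to 1781 and 1890 FPKM in DMSO. Its log2 changes were -1.92 ± 0.05 and -2.30 ± 0.06, a difference of 0.54 ± 0.08 (edgeR adjusted p = 1.1e-05), under the 2-fold limit. Btg4, an adaptor of the deadenylase that clears maternal mRNA, fell by 1.60 ± 0.07 and 1.58 ± 0.09 (difference 0.14 ± 0.11, edgeR adjusted p = 0.46). Of 26 genes of the subcortical maternal complex and other maternal-effect genes, 0 rose and 12 fell under A-485, against 3 and 10 in DMSO, and 40 factors of maternal mRNA decay had 4 higher and 13 lower, against 7 and 12 in DMSO. Of 24 genes in a list of oocyte-secreted, zona and other oocyte genes, 0 rose and 7 fell, beside 0 and 9 in DMSO. Its member Bcl2l10, which is not named here as a secreted or zona gene, fell from 1002 and 1004 to 187 and 197 FPKM under A-485. In DMSO it fell from 799 and 880 to 132 and 142 FPKM.

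**Figure D4:**
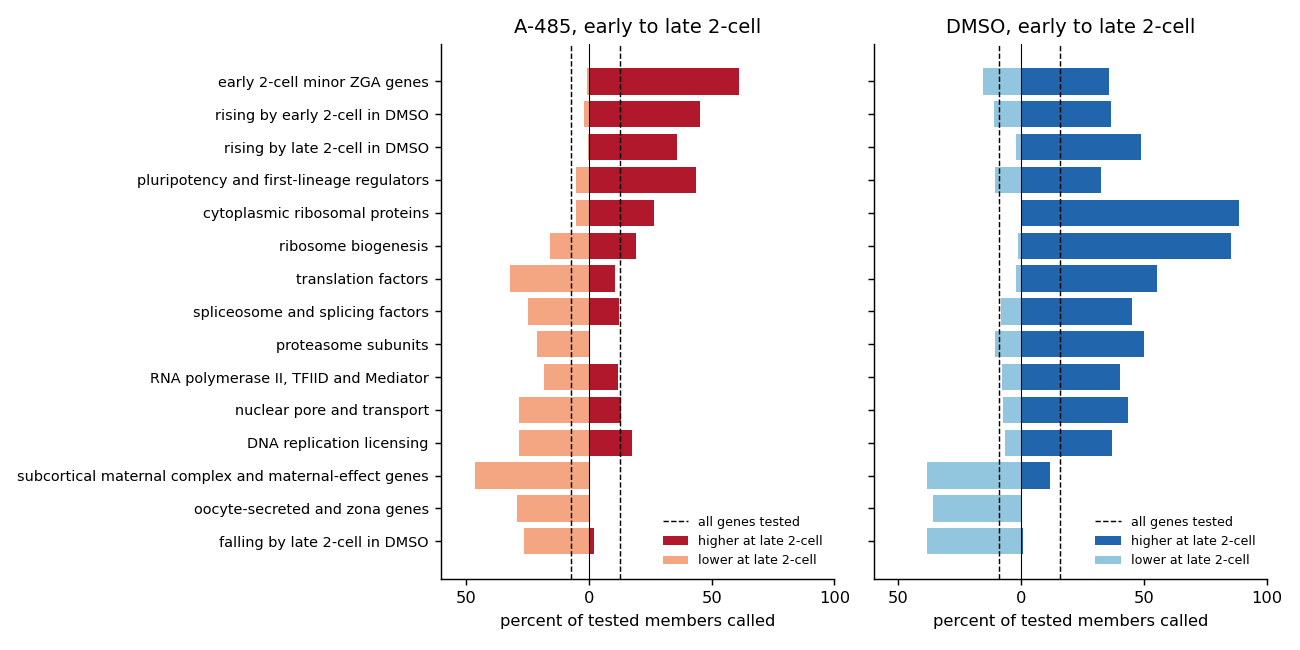
Percent of tested members of 15 gene lists called higher (right) or lower (left) from early to late 2-cell in A-485 (left panel) and DMSO embryos (right panel), with dashed lines at the share over all genes tested. Early 2-cell minor ZGA genes reach 61.1% higher under A-485, and ribosome biogenesis genes, 75 of 88 higher in DMSO, divide into 17 higher and 14 lower under A-485.

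Regulators of lineage were among the genes that rose. Of 39 pluripotency and lineage regulators 17 rose and 2 fell under A-485 (median log2 change 1.56), against 12 and 4 in DMSO, and the difference was higher for 12 and lower for 6. With the mitochondrial scale 12 rose and 11 fell, and the difference was higher for 11 and lower for 12. Sox17, a transcription factor of the endoderm, rose from 0.14 and 0.05 to 9.58 and 12.1 FPKM under A-485, while in DMSO it fell from 1.41 and 1.82 to 0 and 0.18 FPKM. Both late A-485 libraries stood above all 6 others, with log2 changes of 6.23 ± 0.55 (edgeR adjusted p = 1.1e-08) and -3.65 ± 1.12 (edgeR adjusted p = 0.023). Mycn, a MYC-family factor, rose from 0.86 and 0.75 to 14.8 and 12.7 FPKM and had 4.54, 6.22, 3.16 and 3.50 FPKM in the 4 DMSO libraries (difference 4.61 ± 0.44, edgeR adjusted p = 1.9e-08). Klf4 and Tbx3 rose by 1.18 ± 0.14 and 1.50 ± 0.13 under A-485, beside 1.23 ± 0.14 and 1.38 ± 0.15 in DMSO, and Klf17 fell by 1.28 ± 0.10, beside a change of 0.02 ± 0.10 in DMSO. Dll1, a Notch ligand, rose from 0.82 and 0.60 to 18.5 and 17.02 FPKM (3.98 ± 0.33, edgeR adjusted p = 4e-09) and had 1.11 to 3.42 FPKM in DMSO.

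Some genes were seen in late treated embryos and hardly in any control. By the rule of a call in the A-485 transition, a higher change than in DMSO, a late A-485 average of 1 FPKM or more and an FPKM under 0.5 in each of 8 control libraries (zygote, early and both late 2-cell DMSO groups), there were 245. They had late A-485 means of 1.0 to 14.1 FPKM with a median of 2.07, and 223 of them had a mean under 0.5 FPKM in the early A-485 libraries as well. Of all 35513 genes under the limit in every control library, 1395 (3.93%) had a mean of at least 1 in late A-485 and 104 (0.293%) in early A-485 embryos. By biotype 139 were protein coding, 39 TEC (transcripts still to be checked by experiment), 17 antisense and 16 lincRNA. The median span of the protein-coding ones was 10514 bases, against 24308 over all expressed protein-coding genes, and 32.0% of the annotated 244 had a single exon, against 13.5% of expressed genes.

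The 6 with the highest late A-485 FPKM were Spaca6, Bcl11a, Zic5, Fst, Map3k8 and Armcx4. Spaca6, a sperm membrane protein needed for fertilization, had 10.7 and 17.5 FPKM in the late A-485 libraries, 0.05 and 0 in the early ones and at most 0.28 in the 8 control libraries. Bcl11a, a transcriptional repressor of blood and brain, went from 0.93 and 0.84 to 11.3 and 10.3 FPKM (log2 change 3.18 ± 0.21, edgeR adjusted p = 1.7e-10). Zic5, a zinc finger factor of neural development, went from 0.42 and 0.55 to 8.19 and 8.90 FPKM (4.65 ± 0.35, edgeR adjusted p = 1.1e-09). In each the late A-485 libraries stood apart from the rest. Of 1917 Polycomb targets defined by the study, which carry H3K27me3 at the promoter and are not expressed in preimplantation embryos, 364 were tested. Of these 45 rose (12.4%) and 0 fell, beside 12.8% and 7.15% over all genes. Only 71 of the 364 averaged 1 FPKM or more in a group, which a call needs, against 15355 of 22854 genes overall. The shares are thus not like for like. The median log2 change of the 364 was 2.25, where 155 targets passed the same 10-count filter in the DMSO transition. Targets chosen for no expression can enter through the late A-485 libraries alone. The filter thus favoured a positive median, and no conclusion is drawn from it. Of the 245 genes 21 (8.57%) were such targets, beside 1826 (5.14%) of the 35513 genes under the control limit, a limit that favours targets chosen for no expression. They included Fst, Adamts1, Nr2f1, Pcdh17, Hoxc10 and Foxb1. Fst, which encodes the activin antagonist follistatin, went from 1.20 and 1.16 to 9.71 and 5.45 FPKM (2.59 ± 0.36, edgeR adjusted p = 8e-06).

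**Figure D5:**
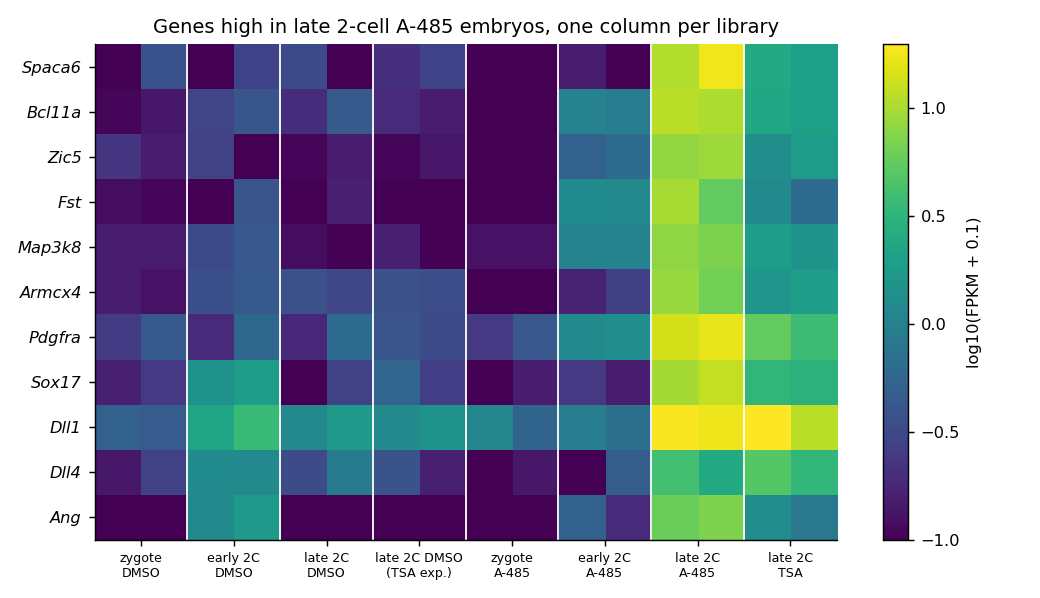
Colour gives log10 of FPKM + 0.1 for 11 genes (rows) in each of 16 RNA libraries (columns, 2 per group). The last 2 are from late 2-cell embryos given the deacetylase inhibitor TSA (50 nM, 8 to 28 hpi). The 2 late A-485 columns are bright for all 11 genes, with Spaca6 at 10.7 and 17.5 FPKM and Bcl11a at 11.3 and 10.3 FPKM.

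Markers of other cells were checked for such genes. Of 8 fibroblast markers 4 were tested and 2 rose, Pdgfra from 1.12 and 1.22 to 13.9 and 15.9 FPKM (3.50 ± 0.22) and Postn from 1.84 and 0.80 to 5.45 and 9.32 FPKM, whose call was lost without early library 2 (edgeR adjusted p = 0.082). The list's summed FPKM went from 2.84 to 3.01 in early to 19.8 to 26 in late A-485 libraries. Col1a1 had 0.05 and 0.01 early and 0.28 and 0.21 FPKM late (edgeR adjusted p = 0.1), Col3a1 had 0.26 FPKM in late library 2 and 0 in the other A-485 libraries, and Dcn, Lum and Col1a2 were at 0 in all 4. Of 11 cumulus cell markers 8 were tested, 0 rose and 1 fell, with a median log2 change of 1.52, and their summed FPKM was 3.11 to 4.29 early and 4.29 to 4.52 late. Foxl2 had 0.60 and 0.30 early and 1.47 and 1.63 FPKM late (edgeR adjusted p = 0.052), and its difference from DMSO of 4.63 was called (edgeR adjusted p = 0.0095). The part of other cells in these results was not tested. Of 9 sperm markers 3 were tested and 2 fell, Odf2 and Prm2, with sums of 144 to 153 early and 79.8 to 80.6 FPKM late, of which Odf2 made most. Of 7 erythroid markers 1 was tested and not called, their sums were 0.23 to 0.90 early and 0.43 to 2.15 FPKM late, and Hbb-bs and Hbb-bt were at 0. The embryo's own markers were present, with summed oocyte and early embryo markers at 3812 and 3998 FPKM early and 1743 and 1851 FPKM late.

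The targets of the drug were themselves measured. Crebbp, which encodes CBP, had 306 and 319 FPKM early and 345 and 354 FPKM late under A-485, a log2 change of 0.14 ± 0.07 (edgeR adjusted p = 0.15). Ep300, which encodes p300, had 31.5 and 32.2 early and 42.2 and 43.0 FPKM late, a log2 change of -0.06 ± 0.09 (edgeR adjusted p = 0.67), whereas in DMSO it rose from 51.4 and 41.6 to 116 and 124 FPKM (1.47 ± 0.09). The difference for Ep300 was -1.37 ± 0.12 (edgeR adjusted p = 8.3e-09). Of 21 histone acetyltransferases 3 rose and 3 fell under A-485, 14.3% each way beside 12.8% and 7.15% over all genes tested. All 21 averaged 1 FPKM or more in a group, which a call needs, against 15355 of 22854 genes overall. These shares are thus not like for like. Of 18 deacetylases 1 rose and 3 fell, with Hdac1 going from 3.86 and 7.07 to 15.7 and 21.2 FPKM (1.57 ± 0.30), beside 1.74 ± 0.14 in DMSO.

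The 6 RNAs with the highest late level among those that rose under A-485 were 4 mitochondrial mRNAs, 1 histone gene and Rsrc2, namely mt-Cytb, mt-Nd3, mt-Nd4, mt-Nd5, Hist1h2ah and Rsrc2 itself. mt-Nd5, a subunit of complex I, went from 1485 and 1344 to 4044 and 3968 FPKM (1.20 ± 0.07, edgeR adjusted p = 1e-11), and had 1436 to 1744 FPKM in DMSO. Of 15 mitochondrially encoded genes 4 rose and 0 fell. On the mitochondrial scale 0 rose and 4 fell. That scale is set from the 13 mRNAs among them, so it removes their shared rise by construction. mt-Cytb (1.07) and Hist1h2ah (1.15) were at 0.99 without early library 2 and early library 1, respectively. Of 76 nuclear respiratory chain genes 6 rose and 10 fell. Of 66 replication-dependent histone genes 14 rose and 1 fell, with 3 and 4 on the mitochondrial scale.

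Stress and damage lists were read against the 12.8% higher and 7.15% lower over all genes tested. In the p53, integrated stress and interferon lists 32, 31 and 12 members averaged 1 FPKM or more, against 15355 of 22854 genes overall. Their shares are thus not like for like. Of 34 p53 response genes 8 rose and 1 fell under A-485 (3 and 9 on the mitochondrial scale), against 14 and 3 in DMSO, with the difference higher for 5 and lower for 6. Plk2, a p53-induced kinase, rose from 6.16 and 7.39 to 20.0 and 22.8 FPKM (1.53 ± 0.18), beside a change of -0.88 ± 0.26 in DMSO. Of 34 integrated stress response genes 9 rose and 4 fell, and 20 interferon-stimulated genes had 3 higher and 0 lower, near the share over all genes. Nupr1, a stress-induced chromatin protein, went from 1 count in the early A-485 libraries to 243 in the late ones, a ratio with a 95% counting interval of 58.3 to 13013, at 16.9 and 10.7 FPKM late. It had 1.77 to 4.94 FPKM in the 4 DMSO libraries, so both late A-485 libraries lay above them. Xbp1, a factor of the unfolded protein response, rose by 2.10 ± 0.49 (edgeR adjusted p = 0.0021) from 0.95 and 0.83 to 5.69 and 6.30 FPKM.

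ATAC-seq, which maps open chromatin, gave a readout that the RNA comparison did not use. The files hold 1 list of early 2-cell peaks per treatment over both replicates, so shares carry a Wilson 95% interval for counting error and no replicate error. Of expressed genes 53.7% (52.9 to 54.5) had an A-485 peak within 1 kb of a start site and 43.4% (42.7 to 44.2) a DMSO peak. For the 1309 genes that rose in DMSO with a lower change under A-485 the shares were 71.4% (68.8 to 73.7) and 75.2% (72.8 to 77.5). For the early 2-cell minor ZGA genes they were 32.1% (28.4 to 36.1) and 38.2% (34.3 to 42.3). Of the 244 annotated genes high in late A-485 embryos and under 0.5 FPKM in controls, 107 (43.9%, 37.8 to 50.1) had an A-485 peak and 43 (17.6%, 13.4 to 22.9) a DMSO peak. The difference between the peak lists was not tested, since each is a single list.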

How the data were processed

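Total RNA was sequenced by the study with a stranded SMART-Seq kit. The authors trimmed reads with Trimmomatic 0.39, aligned them to GRCm38 with STAR 2.7.8a and quantified genes with RSEM 1.3.1, and deposited expected counts and FPKM per gene. The authors deposited 1 ATAC-seq peak list per stage and treatment, with fold enrichment, over both replicates. Lists for the late 1-cell stage were not used. Expected counts (6.23% not whole) were rounded and tested with edgeR 4.0.16 (quasi-likelihood, TMM, at least 10 counts summed over the fitted libraries) in R 4.3.3. Values after ± are an approximate SE, the size of the log2 change divided by the square root of edgeR's F statistic. DESeq2 1.42.0 was an alternative. Libraries held 13206163 to 32585987 counts. Intervals cover counting error only.

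Groups followed the sample labels. Members and gene lists were chosen with earlier results of these data known. Named genes were the 12 largest changes each way in the A-485 transition (FPKM of at least 10, no overlap), the 8 largest differences each way, 6 opposite genes each way, 6 genes high in late A-485 embryos and low in controls, and the most abundant called list members. Symbols of clones, predicted genes and pseudogenes (Gm, Rik, -ps) were left out, and 1 gene that the rule names is not reported here. On simulated data for the A-485 transition (21596 genes), 53 of 100 genes changed 2-fold and 87 of 100 changed 4-fold were recovered, with 17 false among 157 calls. Changed genes were drawn only from well-counted genes, and calls used the adjusted p without the 2-fold and FPKM limits. These values therefore do not carry over to genes of low counts.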

Additional observations from a re-analysis of the deposited data

Results flagged for a closer look

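The test of the difference between the A-485 and DMSO transitions, over 8 libraries, singled out 1911 genes with a higher and 1855 with a lower change under A-485. Differences are on the log2 scale, A-485 minus DMSO, from edgeR. Among genes averaging 10 FPKM or more in some group with no overlap, pseudogenes aside, the highest were Sox17 at 10.05, Spaca6 at 8.88, Tdpoz1 at 7.55, Zscan4f at 7.52, Nupr1 at 7.35, Bex6 at 6.42, Pantr1 at 6.09 and Zscan4d at 5.75. Tdpoz1 and Nupr1 had 1 count in the early A-485 libraries, so their values depend on the prior count. Others were also near the floor in a group, so the size of their differences is uncertain. In late DMSO libraries Sox17 had 0 and 0.18, Spaca6 0.23 and 0, and Pantr1 0.19 and 0 FPKM. In early DMSO libraries Tmem191c, listed next, had 0 and 0.18 FPKM. The lowest were Tmem191c at -7.23, Zfp977 at -6.43, Rab40c at -5.83, Cpne1 at -5.26, Cinp at -4.99, Ipo4 at -4.96, Noc2l at -4.91 and Mpdu1 at -4.83.

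Among genes called in opposite directions, Ang had a difference of 11.46, with late DMSO libraries at 0 so that the value depends on the prior count. Zcchc18 was at 6.99 and Dll4 at 6.35, and Zcchc18 lost its call in the A-485 transition without late A-485 library 2 (2.97, edgeR adjusted p = 0.12). On the lower side were Arpc1a at -4.81, Abcf1 at -4.22, Rnf216 at -3.84, Grwd1 at -3.83 and Duxbl2 at -3.80.

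The libraries of late 2-cell embryos given the deacetylase inhibitor TSA enter no comparison above. Of the 245 genes seen in late A-485 embryos and hardly in controls, 88 (35.9%) had a mean FPKM of at least 1 there, beside 1020 (2.87%) of all 35513 genes under the same limit in every control library. The 245 were chosen for a late A-485 mean of at least 1 FPKM, which 1395 (3.93%) of the 35513 reached. The 2 shares are therefore not like for like, and no test was made of them.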

How the results depend on the processing

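No named gene called in the A-485 transition changed sign under the alternatives run, but the balance of calls and some lists turned on the mitochondrial scale. There the median of cytoplasmic ribosomal proteins went from 0.62 to -0.30, of ribosome biogenesis from 0.16 to -0.75 and of p53 response genes from 0.56 to -0.35. That of interferon-stimulated genes went from 0.76 to -0.16 and of histone genes from 0.69 to -0.20. The median of mitochondrially encoded genes went from 0.49 to -0.41, a shift built in, since their mRNAs set that scale. The median difference of transitions turned for genes falling by late 2-cell (0.49 to -0.55), rising by early 2-cell (0.92 to -0.11) and pluripotency regulators (0.32 to -0.74). Over all expressed genes it went from 0.22 to -0.83. With the mitochondrially encoded mRNAs as the scale, the A-485 transition had 1506 genes higher and 6178 lower, the difference of transitions 947 higher and 5380 lower, and late A-485 against early DMSO 1079 higher and 7339 lower. With library totals 966 genes were lower in the A-485 transition. With the late DMSO libraries of the other block, 2981 genes had a lower difference. A control limit of 0.1 FPKM left 25 genes in the set high in late A-485 embryos and low in controls, and a limit of 1 gave 424. Over expressed genes the share with an A-485 peak was 52.4% within 500 bases and 55.2% within 2 kb, and with a DMSO peak 40.6% and 47.9%. For genes that rose in DMSO with a lower change under A-485 the DMSO shares were 72.0% and 79.8%, and for early 2-cell minor ZGA genes 43.3% within 2 kb.

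Leaving out each library in turn gave 2476 to 2612 higher and 1435 to 1827 lower genes in the A-485 transition. With the replicate number as a block 2801 were higher and 1677 lower. Deviations of same-numbered early and late A-485 libraries correlated at 0.0503, so the numbers are not taken to pair libraries. Of the named-gene values under all alternatives, 2173 kept their side of the threshold, 151 were weaker and 8 were stronger. The lower depth of the late A-485 libraries limits genes of low FPKM.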
